A study of Danio rerio with 6 samples.

Results

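The voltage-gated sodium channel genes of the developing zebrafish heart were followed across 2 sorted cell fractions. Members were chosen by name, and 9 zebrafish genes are described, of which *scn5lab*, *scn12aa*, *scn1lab*, *scn4aa*, *scn4ab*, *scn8aa* and *scn8ab* encode alpha subunits and *scn4ba* and *scn4bb* encode beta subunits. They corresponded to 9 of the 31465 Ensembl gene IDs in the files. Each of 7 members had an ID of its own. The ID taken as *scn5lab* carried another symbol in the gene name sources, so that this match was inferred. *scn8aa* and *scn8ab* corresponded to a pair of IDs that the gene name table lists as SCN8A, with no way to tell which ID is which gene. The hearts were taken at 72 hpf from the transgenic line sqet33mi59BEt. In this enhancer trap line, GFP marks a ring at the venous pole of the heart. Hearts of many embryos were pooled and dissociated, and FACS separated GFP-positive cells, the sinoatrial ring (SAR), from GFP-negative cells, the rest of the heart (ROH), with 3 libraries of each. Both fractions carry the same insertion, and neither is a single cell type: the reporter shows where the trapped enhancer is active, and ROH holds every heart cell without GFP.

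A voltage-gated sodium channel consists of a large pore-forming alpha subunit and smaller beta subunits. When the membrane depolarizes, the pore opens briefly and lets sodium in, which drives the rapid upstroke of the action potential in working heart muscle, skeletal muscle and neurons. Beta subunits cross the membrane once, carry an immunoglobulin-like domain outside the cell, and alter the gating and the surface level of the pore. In mammals, cells at the centre of the sinoatrial node rely more on calcium current for their upstroke. Zebrafish retain duplicates of many of these genes, so that several members form pairs of paralogs.

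Depth differed widely between libraries. Estimated counts summed to 7495108, 35013935 and 77243214 in SAR replicates 1, 2 and 3 and to 999437, 23495798 and 19081874 in ROH replicates 1, 2 and 3, a ratio of 77.3 between the largest and the smallest. A count of 0 allows up to 3 counts, which was 3.0 CPM (counts scaled to a common library total) in ROH replicate 1 and between 0.0388 and 0.400 CPM in the other 5 libraries. In ROH replicate 1, 6 of the 9 member IDs had 3 counts or fewer, and 2 of those had none. Such limits cover counting error only. The labelled fractions differed in their marker genes: of 6 tested sinoatrial markers, 2 were called higher in SAR, against 2.84% of all tested genes. These were *tbx18*, a transcription factor of the sinus horn, and *hcn4*, the pacemaker channel. Not all of the 6 went that way: *isl1*, a transcription factor of pacemaker cells named here after its values were seen, had 12.7 ± 4.51 TPM in SAR and 38.9 ± 35.2 TPM in ROH, with overlapping ranges (log2 fold change −1.56, edgeR adjusted p = 0.163). All 8 erythroid markers and 6 of 8 endothelial and endocardial markers were called lower in SAR, against 3.70% of all tested genes.

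In levels per transcript length, given as TPM (transcript abundance scaled to the same total in each library), the members described here ranged from barely detected to moderate. The highest member in SAR was *scn4ab*, with 7.21 ± 0.711 TPM (SD, n = 3), followed by *scn4ba* with 5.35 ± 3.39 TPM, and the ranges of these neighbours in the order overlapped. The highest member in ROH was *scn4bb*, with 11.4 ± 7.18 TPM. Its length was only 317.4 to 563.5 bases, and its rank and percentile by TPM rest in part on that length. In CPM, a scale that is not per length, *scn4bb* had 9.20 ± 3.59 in ROH, beside 11.4 ± 2.57 for *scn4ab*. *scn4aa* was the lowest in both fractions, at 0.0863 ± 0.0987 TPM in SAR and 0.0540 ± 0.0564 TPM in ROH. Among the 30435 genes with a TPM above 0 in at least 1 library, the members' mean levels lay between percentiles 5.48 and 70.9. The mean level of *scn4ab* lay at percentile 64.1 in SAR and 42.0 in ROH, whereas *scn4bb* lay at percentile 35.4 in SAR and 70.9 in ROH.

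**Figure D1:**
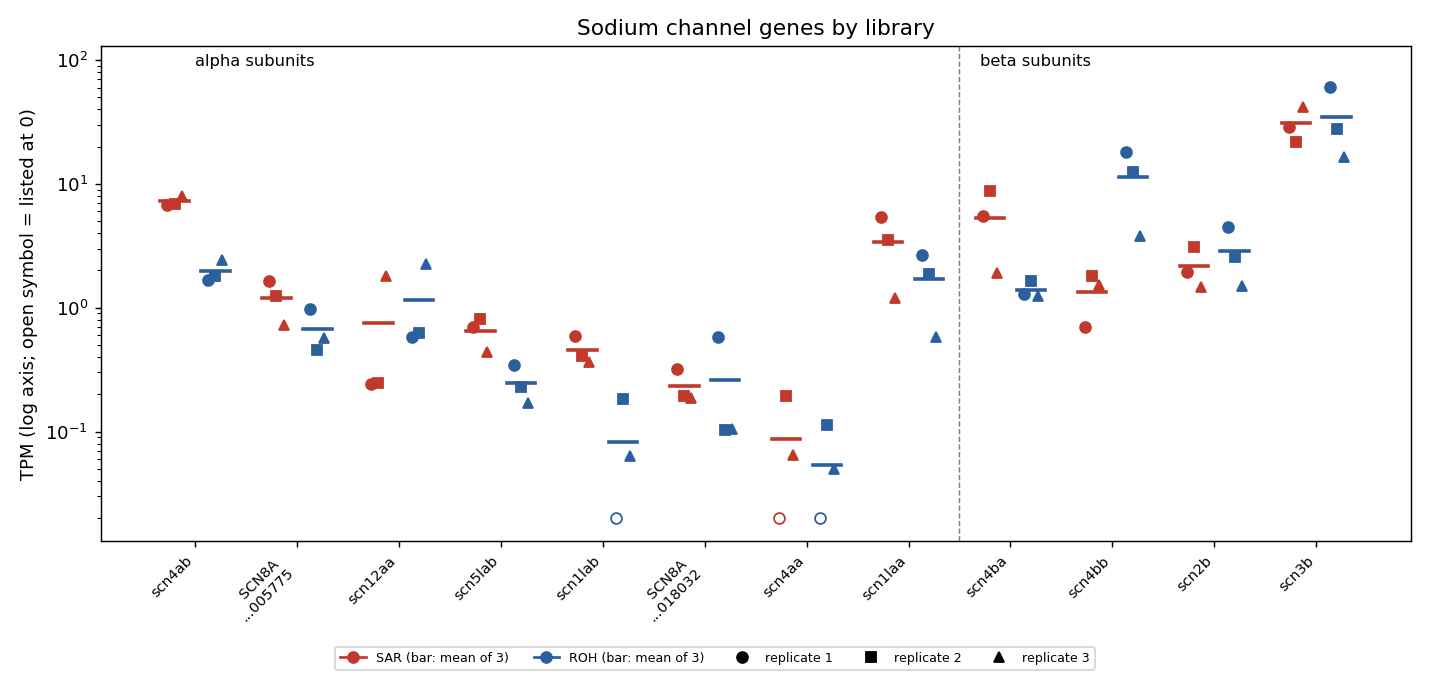
Level of each sodium channel gene in each library, in TPM on a log axis, for 9 member IDs and 3 further scn genes, with alpha subunits left and beta subunits right of the dashed line. Red is SAR and blue is ROH, marker shapes are replicates 1 to 3, bars are means of 3 libraries, and open symbols mark values listed at 0, drawn at the foot of the axis. The 3 SAR libraries of scn4ab lie between 6.74 and 8.03 TPM, above its 3 ROH libraries, and scn4bb shows the opposite order.

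The comparison of SAR with ROH asks which channel genes differ between the ring and the other heart cells. Of the 9 member IDs, 8 passed the filter on low counts and were tested, and *scn4aa* was not. *scn4ab* was called higher in SAR and *scn4bb* was called lower, where a call means an adjusted p below 0.05 and a log2 fold change of at least 1.5 in size in edgeR's quasi-likelihood test. Over all 21969 tested genes, 2.84% were called higher and 3.70% were called lower, and the members' count was 1 of 8 in each direction. The other 6 tested IDs were not called. The members were chosen with earlier results of these data known, so their counts beside those of all tested genes are descriptive only. At an unadjusted p below 0.05, edgeR counted 5 of the 8, against 23.6% of all tested genes. Fitted log2 fold changes were above 0 for 6 of the 8 IDs, against 52.3% of all tested genes, and their median was 1.24 against 0.03 over all tested genes. On the log2 CPM scale, all SAR libraries lay above all ROH libraries for 4 IDs and below them for 2, against 14.3% and 15.6% of all tested genes. A single gene tested by exact two-sided permutation of the 6 libraries cannot go below p = 0.1, which each of these 6 IDs reached. The permutations and the statements on overlap did not pair same-numbered libraries, which are taken to share a pool. The directions within same-numbered pairs given below are descriptive and were not tested themselves. With so few pairs, a direction shared by all of them readily arises by chance. In sorted fractions that are sequenced in bulk, fewer cells that express a gene and less of its RNA per cell cannot be told apart.

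**Figure D2:**
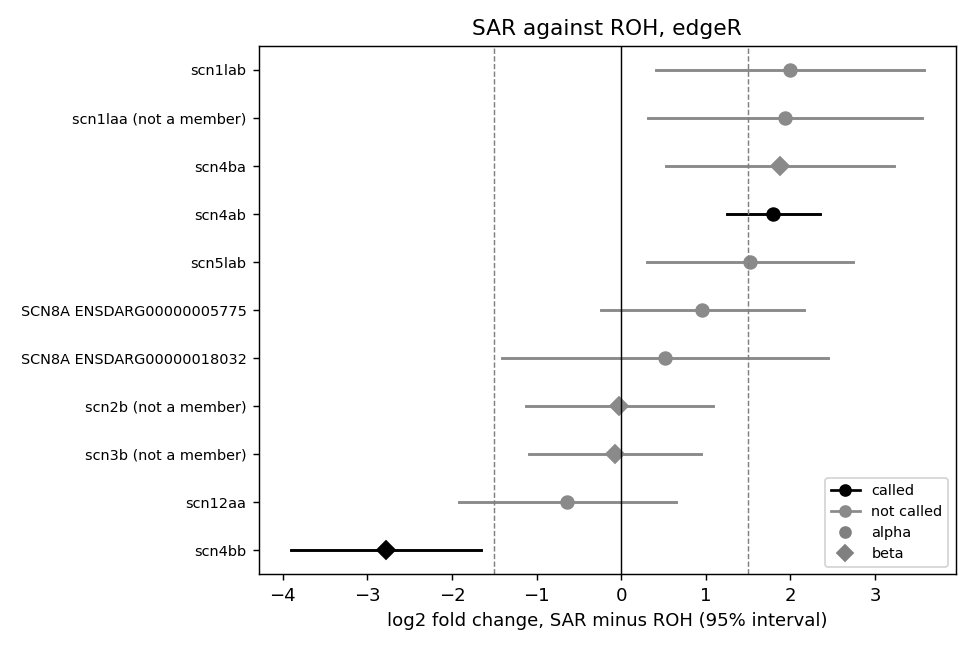
Fitted log2 fold change, SAR minus ROH, from edgeR for 8 tested member IDs and 3 further scn genes, with 95% intervals as horizontal lines. Circles are alpha and diamonds are beta subunits, black marks called genes, and dashed lines stand at the fold threshold of 1.5 on the log2 scale. scn4bb is the only gene shown whose interval lies wholly below 0, and scn4ab has the narrowest interval.

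Among the members described here, *scn4ab* had the lowest adjusted p. It is an ortholog of mammalian *Scn4a*, the alpha subunit of skeletal muscle. Its level was 6.74, 6.87 and 8.03 TPM in SAR replicates 1, 2 and 3, and 1.69, 1.80 and 2.44 TPM in ROH replicates 1, 2 and 3. The fractions did not overlap (7.21 ± 0.711 TPM in SAR, 1.975 ± 0.4025 TPM in ROH, SD, n = 3 each). These levels rested on 294, 1161 and 3420 estimated counts in SAR and on 11, 238 and 273 in ROH. *scn4ab* rose 3.48-fold in SAR (log2 fold change 1.80, SE 0.24, 95% interval 1.25 to 2.35, edgeR adjusted p = 0.00386). Over 18 alternative settings its log2 fold change lay between 1.47 and 2.10, and the adjusted p between 1.30e-07 and 0.0414. The call held in 16 of the 18, the other 2 being limma fits on log2(TPM + 1), which gave 1.47, just under the fold threshold. *scn4ab* was called with each of the 6 libraries left out in turn, and without ROH replicate 1, where it had its 11 counts, the log2 fold change was 1.76. Beside it, the skeletal muscle markers, which share the muscle expression of this gene's mammalian counterpart, had a median log2 fold change of 0.19 over 12 tested genes. Of these 12, edgeR and DESeq2 called 0. Over all tested genes, edgeR called 2.84% higher and 3.70% lower. At an unadjusted p below 0.05, edgeR counted 0 of the 12, against 23.6% of all tested genes. The summed levels of the skeletal muscle markers overlapped between the fractions (87.4 to 429 TPM in SAR, 135 to 228 TPM in ROH). The list held 19 genes, of which only these 12 were matched to an ID. The cardiomyocyte markers had a median log2 fold change of 1.51 over 9 tested genes. Of these 9, 1 was called higher by edgeR, against 2.84% of all tested genes. In edgeR, 6 of the 9 had an unadjusted p below 0.05, against 23.6% of all tested genes. The summed levels of the cardiomyocyte markers overlapped between the fractions (1068 to 4248 TPM in SAR, 756 to 1377 TPM in ROH). The part of skeletal muscle or other muscle cells in the level of *scn4ab* was not tested. *scn4aa*, the paralog of *scn4ab*, was listed at 0, 0.194 and 0.0650 TPM in SAR and at 0, 0.113 and 0.0494 TPM in ROH. It had at most 24 counts in any library, and its levels overlapped between the fractions.

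*scn5lab* and *scn12aa* are known from zebrafish embryos as sodium channel genes of the heart. *scn5lab* had 0.698, 0.803 and 0.438 TPM in SAR and 0.346, 0.227 and 0.169 TPM in ROH. All SAR libraries were higher than all ROH libraries, although ROH replicate 1 held only 2 counts. The log2 fold change of *scn5lab* was 1.52 (SE 0.53, 95% interval 0.31 to 2.74) and it was not called (edgeR adjusted p = 0.117). *scn12aa* had 0.241, 0.248 and 1.79 TPM in SAR and 0.585, 0.628 and 2.26 TPM in ROH. In each fraction replicate 3 stood above the other libraries, and the TPM ranges overlapped. Within each same-numbered pair of libraries, the TPM of *scn12aa* was lower in SAR. On the CPM scale the picture was different, with 1.17, 0.935 and 0.85 CPM in SAR and 2.81, 1.21 and 1.32 CPM in ROH, so that SAR lay just below ROH without overlap and replicate 3 did not stand apart. *scn12aa* had a log2 fold change of −0.63 (SE 0.56, 95% interval −1.92 to 0.65, edgeR adjusted p = 0.586) and was not called.

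The difference between the 2 scales lay in the gene length used to compute TPM. Salmon's length of a gene is the mean over its transcripts, weighted by their estimated abundance. For *scn5lab* it was 6471 bases in all 6 libraries. For *scn12aa* it was 5799 bases in SAR replicates 1 and 2 and in ROH replicate 1, 1820 in ROH replicate 2, 433.5 in SAR replicate 3 and 485.7 in ROH replicate 3. The shortest lengths, in replicate 3 of both fractions, went with the highest *scn12aa* TPM. When the counts were divided by 1 fixed length per gene, the longest effective length in any library (6370 bases for *scn5lab* and 5698 for *scn12aa*), an alternative added after seeing the data, *scn12aa* had 0.147, 0.130 and 0.123 TPM in SAR and 0.410, 0.174 and 0.172 TPM in ROH. TPM at fixed lengths is a scale of its own, since the lengths of all genes were changed. *scn5lab*, whose length did not vary, had 0.372 ± 0.0905 TPM in SAR on that scale, against 0.647 ± 0.188 TPM as deposited. The log2 ratio of *scn5lab* to *scn12aa* at these fixed lengths was 1.09, 1.18 and 0.72 in SAR and −0.57, −0.22 and −0.46 in ROH. At these lengths *scn5lab* was the higher of the pair in each SAR library and *scn12aa* in each ROH library, with a difference in the log2 ratio of 1.41 (exact permutation p = 0.1). Which gene was higher depended on the length chosen: at the shortest effective lengths (6014 and 329 bases) *scn12aa* was higher in all 6 libraries, while the log2 ratio was still higher in all SAR libraries, by 1.54 (exact permutation p = 0.1). From TPM as deposited, the same log2 ratio was 1.23, 1.38 and −1.81 in SAR and −0.62, −1.16 and −3.13 in ROH, which overlapped. The difference was 1.90 (exact permutation p = 0.3), and within each same-numbered pair of libraries the ratio was higher in SAR. The counts behind these values were low, between 2 and 158 for *scn5lab* and between 3 and 65 for *scn12aa*.

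**Figure D3:**
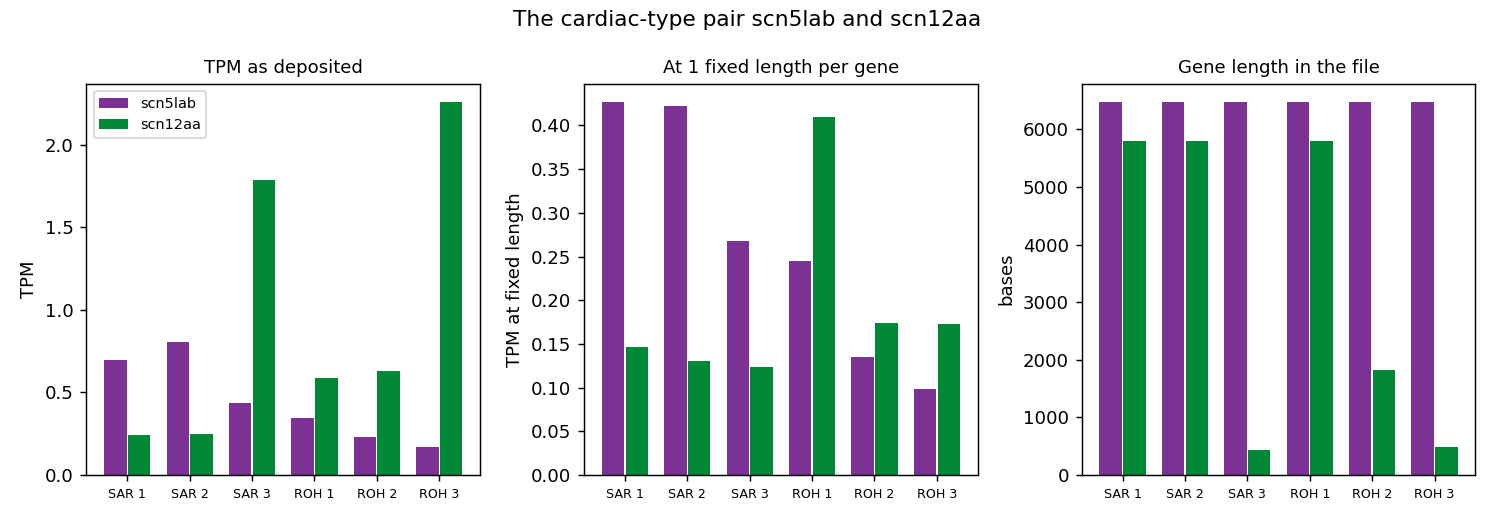
The pair scn5lab and scn12aa in each library. The left panel gives TPM as deposited, the middle panel TPM recomputed with the longest effective length of each gene, and the right panel the gene length in bases that the files hold for each library. The scn12aa bars for replicate 3 are the highest of the pair on the left, and in the middle panel scn5lab is the higher gene in the 3 SAR libraries and scn12aa in the 3 ROH libraries.

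*scn1lab* and the SCN8A genes are alpha subunits of neurons, and *scn1lab* is the zebrafish ortholog of *SCN1A* used in models of epilepsy. *scn1lab* had 0.590, 0.408 and 0.366 TPM in SAR, and 0, 0.183 and 0.0633 TPM in ROH. SAR was above ROH without overlap, but ROH replicate 1 had no count, which allows up to 3.0 CPM, and the SAR libraries had 3.21, 1.72 and 1.73 CPM. The log2 fold change of *scn1lab* was 1.99 (SE 0.69, 95% interval 0.41 to 3.58, edgeR adjusted p = 0.116), and with single libraries left out it lay between 1.66, without SAR replicate 1, and 2.95, without ROH replicate 2. It was not called under any of 15 alternatives. The SCN8A gene ENSDARG00000005775 had 1.65, 1.25 and 0.720 TPM in SAR and 0.984, 0.455 and 0.571 TPM in ROH. Its ranges overlapped through SAR replicate 3 and ROH replicate 1, and the log2 fold change was 0.96 (SE 0.52, 95% interval −0.24 to 2.16, edgeR adjusted p = 0.328). Its TPM was higher in SAR within each same-numbered pair of libraries. The other SCN8A gene, ENSDARG00000018032, had a lower level, between 0.188 and 0.318 TPM in SAR and between 0.103 and 0.576 TPM in ROH. Its log2 fold change of 0.52 had a 95% interval of −1.41 to 2.45 (edgeR adjusted p = 0.796), and its sign changed under 3 of 15 alternatives. Beside these genes, 2 of 13 tested neuronal markers were called higher in SAR, against 2.84% of all tested genes. These were *gap43*, a growth cone protein, and *phox2bb*, a transcription factor of autonomic neurons, each with a log2 fold change of 1.85. The median log2 fold change of the 13 was 1.06. In edgeR, 8 of them had an unadjusted p below 0.05, against 23.6% of all tested genes. The summed level of the neuronal markers was 406 to 587 TPM in SAR and 204 to 378 TPM in ROH, which did not overlap, and 0 of the 15 matched markers were at 0 in all libraries. The summed level of the Schwann cell and neural crest markers was 39.1 to 57.9 TPM in SAR and 27.9 to 36.5 TPM in ROH. Of 6 tested genes of that list, 0 were called by edgeR and 1 by DESeq2. In edgeR, 1 of the 6 had an unadjusted p below 0.05, against 23.6% of all tested genes. The part of these cells in the levels of the channel genes was not tested.

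Summed over the 7 alpha IDs, the level was 10.2, 9.97 and 11.6 TPM in SAR and 4.18, 3.51 and 5.65 TPM in ROH. The fractions did not overlap, and the SAR mean was 2.38 times the ROH mean (exact permutation p = 0.1). This sum contains *scn4ab*, whose mean alone was 7.21 TPM in SAR and 1.975 TPM in ROH. The separation of the sum is therefore not a result apart from *scn4ab*, and does not show that the other 6 IDs differ as a group. *scn4ab* made up most of the SAR sum, with 65.8%, 68.9% and 69.3% of the alpha transcripts in SAR against 40.4%, 51.3% and 43.1% in ROH. This share was higher in all SAR than in all ROH libraries (68.0% ± 1.91 against 44.9% ± 5.68, SD, n = 3 each, exact permutation p = 0.1, 0.7 adjusted over 7 IDs). The shares of the other 6 IDs overlapped between fractions. *scn12aa* held 6.75% ± 7.5 of the alpha transcripts in SAR and 24.0% ± 14.0 in ROH, and *scn5lab* held 6.22% ± 2.20 and 5.91% ± 2.69. The composition depended on the gene lengths. At 1 fixed length per gene, here the longest effective length, the *scn4ab* share was 80.8% ± 5.90 in SAR and 66.0% ± 12.3 in ROH. These ranges overlapped (exact permutation p = 0.2). At these lengths *scn12aa* held 1.37% ± 0.188 in SAR and 6.98% ± 2.68 in ROH without overlap (exact permutation p = 0.1). Under both computations *scn4ab* held the highest share among these 7 IDs in each of the 6 libraries. Shares at the shortest effective lengths, 329 bases for *scn12aa* and 2261 for *scn4ab*, were not computed. The order and the shares given here therefore hold for these computations only. The length of *scn4ab* itself was 4117, 3546 and 3989 bases in SAR and 2413, 2940 and 3699 bases in ROH, which overlapped (exact permutation p = 0.2). Within each same-numbered pair of libraries it was longer in SAR. Of the members described here, only *scn4ab* had at least 10 counts in each library, the minimum set for this test.

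**Figure D4:**
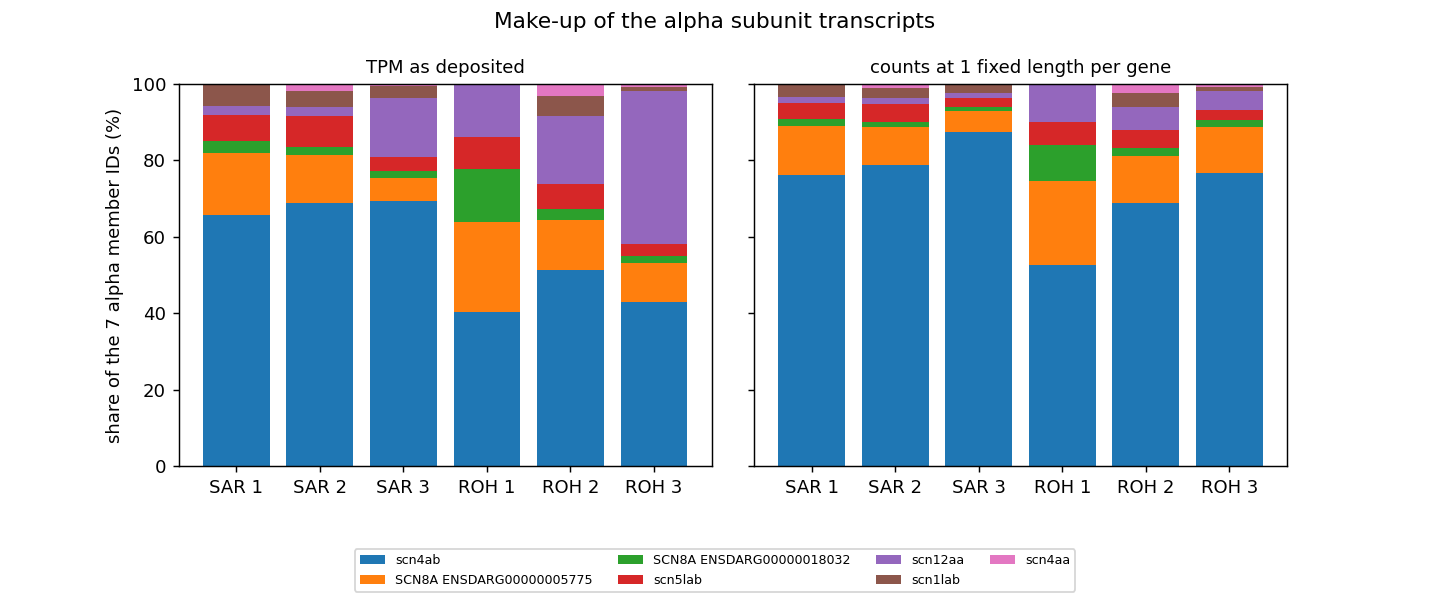
Share of each of the 7 alpha subunit IDs in their summed level, in percent, for each library. The left panel is from TPM as deposited, and the right panel from counts at 1 fixed length per gene, the longest effective length. scn4ab, the lowest block, holds 65.8% to 69.3% in SAR and 40.4% to 51.3% in ROH on the left, and the scn12aa block of replicate 3 of both fractions shrinks on the right.

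The beta-4 paralogs *scn4ba* and *scn4bb* went in opposite directions. Mammalian beta-4 binds the alpha subunit through a disulfide bond, and its gene has been linked to inherited arrhythmia. *scn4bb* had 0.701, 1.80 and 1.53 TPM in SAR and 18.1, 12.4 and 3.81 TPM in ROH. All SAR libraries lay below all ROH libraries, with ROH replicate 3 nearest to SAR. Its counts were 6, 61 and 86 in SAR, and 12, 280 and 96 in ROH. *scn4bb* fell 6.88-fold in SAR (log2 fold change −2.78, SE 0.49, 95% interval −3.91 to −1.66, edgeR adjusted p = 0.0110). The direction was the same under all 16 alternatives run, with log2 fold changes from −3.09 to −2.22 and adjusted p from 4.39e-06 to 0.0853. The call was lost in 3 of them, with limma over all genes at a pseudocount of 1 or 0.1 TPM, and without ROH replicate 2, where the log2 fold change was −2.53 (edgeR adjusted p = 0.0664). *scn4ba* had 5.45, 8.68 and 1.90 TPM in SAR and 1.29, 1.66 and 1.24 TPM in ROH. SAR lay above ROH without overlap, but SAR replicate 3 was close to the ROH libraries. The counts of *scn4ba* were 59, 388 and 199 in SAR and 2, 56 and 35 in ROH. Its log2 fold change was 1.88 (SE 0.59, 95% interval 0.53 to 3.22), and it was not called (edgeR adjusted p = 0.0853). Over 16 alternatives its adjusted p ran from 0.020 to 0.277, and it was called in 2 of them, by DESeq2 (log2 fold change 1.91, adjusted p = 0.020) and without SAR replicate 3 (log2 fold change 2.3, edgeR adjusted p = 0.0212).

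The log2 TPM ratio of *scn4ba* to *scn4bb* was 2.79, 2.21 and 0.30 in SAR and −3.71, −2.83 and −1.54 in ROH. *scn4ba* was thus the more abundant paralog in each SAR library and *scn4bb* in each ROH library. The fractions differed by 4.46 on the log2 scale (exact permutation p = 0.1, 0.2 adjusted over 4 pairs of paralogs). The length of *scn4ba* was 2072 bases throughout, and that of *scn4bb* varied from 317.4 to 563.5 bases. At the longest fixed lengths the difference in the log2 ratio was 4.34, and *scn4bb* was then the higher paralog in SAR replicate 3 also, with a log2 ratio of −0.64. At the shortest it was 4.34 as well, and *scn4bb* was higher in SAR replicate 2 too, with −0.26. The summed level of the cardiomyocyte markers was 3928, 4248 and 1068 TPM in SAR replicates 1, 2 and 3 and 1346, 1377 and 756 TPM in ROH. Of 9 tested cardiomyocyte markers, 9 had a fitted log2 fold change above 0, against 52.3% of all tested genes. Of the 9, only *nppb*, which encodes a natriuretic peptide, was called higher, against 2.84% of all tested genes. The cardiomyocyte list held 13 genes, of which only these 9 were matched to an ID. ROH, in which *scn4bb* was high, held 277 to 679 TPM of endothelial and endocardial markers against 69.5 to 107 TPM in SAR, and 26360 to 43370 TPM of erythroid markers against 10.3 to 19.8 TPM. In ROH replicates 1, 2 and 3, *scn4bb* had 18.1, 12.4 and 3.81 TPM. In the same order, the endothelial and endocardial markers summed to 416, 679 and 277 TPM, and the erythroid markers to 26360, 33030 and 43370 TPM. The part of cardiomyocytes, endothelial cells and blood cells in the levels of the beta-4 genes was not tested.

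**Figure D5:**
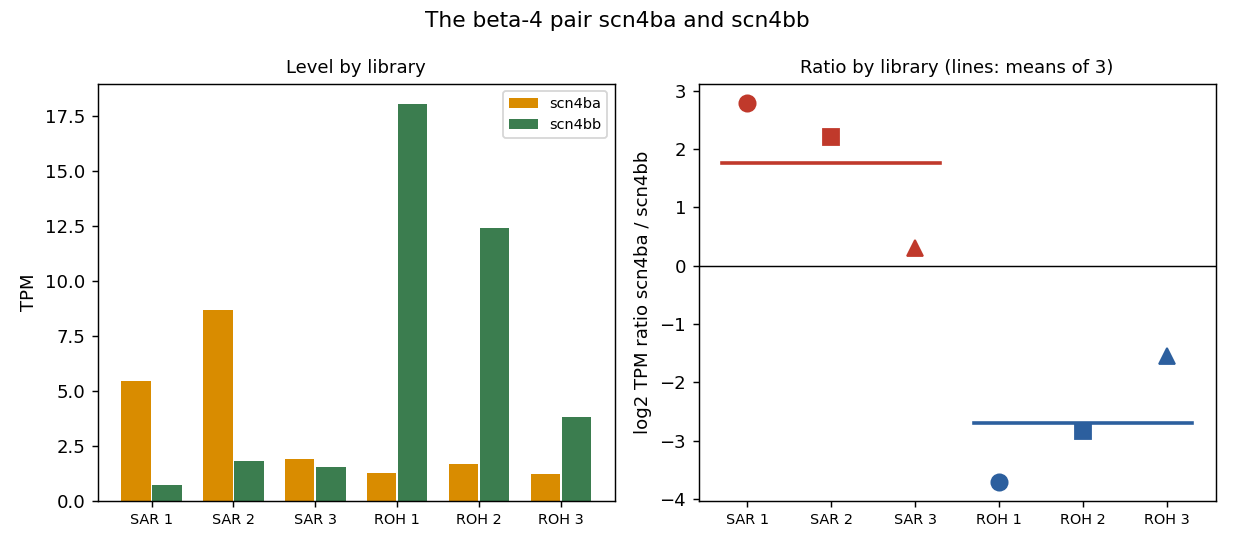
The beta-4 pair in each library, as TPM of scn4ba and scn4bb (left) and as the log2 ratio of scn4ba to scn4bb, computed with 0.1 TPM added to each (right, lines are means of 3 libraries). The ratio lies between 0.30 and 2.79 in the SAR libraries and between −3.71 and −1.54 in the ROH libraries.

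Summed over both beta-4 genes, the level was 6.15, 10.5 and 3.43 TPM in SAR and 19.3, 14.1 and 5.05 TPM in ROH. The ranges overlapped through ROH replicate 3 (6.69 ± 3.56 against 12.8 ± 7.23 TPM, SD, n = 3 each, exact permutation p = 0.3), and the difference of −6.13 TPM became −2.87 TPM without ROH replicate 1 and −10.0 TPM without ROH replicate 3. At the longest fixed lengths, added after seeing the data, the sum was 4.8 ± 2.23 TPM in SAR and 14.9 ± 6.15 TPM in ROH. The fractions did not overlap there (exact permutation p = 0.1), and these values are not on the scale of the deposited TPM. The ratio of the deposited beta-4 sum to the summed alpha level was 0.601, 1.05 and 0.295 in SAR and 4.63, 4.01 and 0.893 in ROH (exact permutation p = 0.2). ROH replicate 3 fell within the SAR range, and the other 2 ROH libraries lay above it. Within each same-numbered pair of libraries, both the sum and this ratio were lower in SAR. At fixed lengths this ratio was 0.424, 0.842 and 0.268 in SAR and 4.51, 6.42 and 2.22 in ROH, which did not overlap (exact permutation p = 0.1). The sum and the ratio rest in part on the short length of *scn4bb*, 317.4 to 563.5 bases. They leave out *scn2b* and *scn3b*, 2 further beta subunit genes. With these added, the deposited beta sum was 39.8 ± 6.07 TPM in SAR and 50.6 ± 31.4 TPM in ROH, which overlapped (exact permutation p = 0.8).

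The files held 3 further genes with a scn symbol, *scn1laa*, *scn2b* and *scn3b*, of which 0 were called by edgeR or by DESeq2 and 1 had an unadjusted p below 0.05 in edgeR. *scn1laa*, the paralog of *scn1lab*, had 5.41, 3.49 and 1.21 TPM in SAR and 2.67, 1.87 and 0.580 TPM in ROH. Its TPM ranges overlapped, although its TPM was higher in SAR within each same-numbered pair of libraries. Its CPM was higher in all SAR libraries, and the log2 fold change was 1.93 (SE 0.71, edgeR adjusted p = 0.135). ROH replicate 1 had 1 count, and the length of *scn1laa* in the files was only 139.4 to 313.4 bases. Its deposited TPM was above that of *scn4ab* in ROH replicates 1 and 2. *scn2b* encodes a beta subunit that, like beta-4, is bound by a disulfide bond, and it is the neighbour of *scn4ba* in the RefSeq annotation (GRCz12tu, used here for gene order only). Its level was 1.95, 3.08 and 1.47 TPM in SAR and 4.47, 2.57 and 1.49 TPM in ROH. In contrast to *scn4ba*, its ranges overlapped, and its log2 fold change was −0.02 (95% interval −1.13 to 1.09, edgeR adjusted p = 0.987). *scn3b*, another beta subunit gene, had the highest TPM of the sodium channel genes described here in both fractions. Its level was 29.0, 21.9 and 41.8 TPM in SAR and 60.9, 27.6 and 16.4 TPM in ROH. Its log2 fold change of −0.07 had a 95% interval of −1.09 to 0.95 (edgeR adjusted p = 0.958). The length of *scn3b* was 337 to 409.3 bases, and its CPM of 9.13 ± 1.06 in SAR was below the 40.5 ± 5.79 of *scn4ab*, a comparison that is not per length.

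Proteins that anchor or regulate the channels were followed as a list of 31 genes, of which 21 were found by symbol and tested. Of the 21, 14 had a log2 fold change above 0 and 7 below, against 52.3% of all tested genes above 0, and the median was 0.33. None was called by edgeR or by DESeq2, while edgeR called 2.84% of all tested genes higher and 3.70% lower. At an unadjusted p below 0.05, edgeR counted 4 of the 21, which was no more than the 23.6% of all tested genes. The most abundant were the calmodulin genes, which encode the calcium sensor that binds the tail of the alpha subunit. *calm3b* had a mean level of 1032 TPM in SAR and 1176 TPM in ROH, *calm1a* 270.5 and 265.5 TPM, and *calm2a* 78.5 and 77.7 TPM. *ank3a*, chosen for description after its values were seen, encodes ankyrin-G, which tethers sodium channels to the membrane skeleton. It had 10.8, 14.7 and 9.41 TPM in SAR and 3.86, 3.06 and 3.72 TPM in ROH. All its SAR libraries lay above all ROH libraries, and its log2 fold change was 1.21 (SE 0.40, edgeR adjusted p = 0.0993), which was not called. *ank3b*, the other *ank3* gene of the list, had 10.2 ± 2.63 TPM in SAR and 7.09 ± 2.07 TPM in ROH, with overlapping ranges. Its log2 fold change was 0.34 (edgeR adjusted p = 0.620). On the log2 CPM scale, 4 of the 21 partners lay above without overlap and 2 below, against 14.3% and 15.6% of all tested genes. Epithelial markers also differed: 4 of 9 were called higher in SAR, against 2.84% of all tested genes. Among these 4 were *krt5* and *krt4*, keratins, and *cldnb*, a claudin. The summed level of the epithelial markers was 6382 to 8453 TPM in SAR and 2514 to 3652 TPM in ROH. The part of epithelial cells in the levels of the channel genes was not tested.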

How the data were processed

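Reads were obtained from 3 SAR and 3 ROH libraries, grouped by the sorted fraction in the sample labels. The authors amplified cDNA (SMART-Seq v4), prepared libraries (Nextera XT) and quantified reads on GRCz11 (Ensembl Genes 92) with Salmon, which divides reads shared by paralogs by estimation. bcl2fastq (version 2.16.10), cutadapt and DESeq2 are named in the submitters' processing notes. The authors deposited, per gene, a TPM, an estimated count and an abundance-weighted length. The fractional estimated counts were rounded. The authors measured RNA integrity, which was not taken into account here where genes of different length, or estimated lengths, are compared. Symbols were found for 29000 of the 31465 IDs.

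Counts were filtered with filterByExpr (minimum count 10, total 15), normalized by TMM and tested with edgeR (version 4.0.16, R version 4.3.3) without a block. p-values were adjusted over 21969 genes (Benjamini-Hochberg). CPM used TMM-normalized totals, and permutations used log2 CPM (prior count 2) without pairing libraries. Paralog ratios used 0.1 TPM as pseudocount. The procedure was tested on simulated data. Alternatives were DESeq2 (version 1.42.0), limma (version 3.58.1), other scalings, filters and length offsets, thinned counts, the replicate block and each library left out. The members, 3 further scn genes, called or the 3 most abundant partners, and up to 3 markers per list were named. The members and lists were chosen with earlier results of these data known. Per the study's methods, pools of embryos in 3 biological replicates were dissociated and sorted into both fractions, so that same-numbered libraries are taken to share a pool. Deviations of same-numbered libraries from their group means correlated by 0.099, 0.27 and 0.12, each the highest for its library. Sequences and coordinates were not analysed here, and 1 further member is not reported here.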

Additional observations from a re-analysis of the deposited data

How the results depend on the processing

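Of the 9 member IDs, the number called higher in SAR was 1 and the number called lower was 1. The first was 2 with DESeq2, 0 with limma on log2(TPM + 1) with and without a mean TPM of at least 1, and 1 to 2 with each library left out (2 without SAR replicate 3). The second was 0 with at least 10 counts in every library and with thinned counts, where only 1 member ID was tested, 0 with limma over all genes at either pseudocount (1 with a mean TPM of at least 1), and 0 to 1 with each library left out (0 without ROH replicate 2). Over all genes, 624 were called higher and 813 lower. These counts were 215 and 391 with at least 10 counts in every library, 375 and 533 with limma at a pseudocount of 1 TPM, 389 and 453 at 0.1 TPM, 405 higher with thinned counts, 1072 higher without a fold threshold, and 369 to 647 and 442 to 1035 with each library left out, lowest without ROH replicate 2. Signs changed only for values that were not called. The SCN8A gene ENSDARG00000018032 had −0.15 with length offsets, −0.014 with limma on log2(TPM + 1), and −0.053 to 1.14 with libraries left out. *scn2b* had 0.038 with DESeq2, 0.0056 with RLE size factors, 0.014 without a filter, 0.0050 without globin genes and −0.25 to 0.28 with libraries left out. *scn3b* had 0.064 with length offsets, 0.034 with the replicate block and −0.38 to 0.43 with libraries left out. The difference in alpha share (SAR minus ROH, percentage points) of *scn5lab* was −0.61 at fixed length and −1.16 to 1.53 with libraries left out, that of *scn4aa* −1.20 to 0.40 and that of the SCN8A gene ENSDARG00000005775 −6.62 to 0.098. The difference in *scn3b* length was −34.6 to 1.53 bases. The causes were not tested. With the replicate block, which pairs same-numbered libraries, no member's call changed: *scn4ab* had a log2 fold change of 1.80 and *scn4bb* of −2.69, both called, *scn4ba* had 1.57 and was not called, and 719 genes were called higher and 1040 lower. ROH replicate 1, with 999437 counts, limits every member below about 3.0 CPM.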
